A study of Mus musculus with 6 samples.

Results

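The 4 Notch receptors (Notch1, Notch2, Notch3 and Notch4) and 4 of their ligands (Jag1, Jag2, Dll1 and Dll4) were followed in primary mouse hepatic stellate cells. They are 8 of the 17909 genes listed in the series, chosen by name as the canonical receptors and activating ligands, and each was matched through its NCBI gene identifier. The HAS2_Tg group (replicates 4, 5 and 6) came from mice carrying human HAS2 under the alpha smooth muscle actin promoter, which is active in smooth muscle as well as in activated stellate cells. The Has2_KO group (replicates 7, 8 and 9) came from mice in which floxed Has2 was removed by Lrat-Cre, a Cre under regulatory sequence of the retinol-esterifying enzyme that marks stellate cells. Both groups were C57BL/6 males of 24 weeks, and the cells were depleted of Cd11b-positive macrophages, allowed to attach for 4 h and cultured for 14 h more in 10% serum. No wild-type cells were analysed here, so a difference cannot be assigned to either genotype. The labels do not say whether the 3 libraries of a group came from separate mice, and p-values measure the spread between these libraries, which may be technical.

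Notch receptors are single-pass membrane proteins that are switched on by ligands on a neighbouring cell. Ligand endocytosis pulls on the receptor, ADAM proteases and then gamma-secretase cut it, and the freed intracellular domain joins RBPJ and Mastermind-like coactivators at genes such as those of the HES and HEY families. In the liver the pathway is known for bile duct development, in which JAG1 and NOTCH2 take part, and for vascular differentiation. Notch3 is best known in mural cells, and Notch4 and Dll4 in endothelium.

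The RefSeq promoter table (GRCm38.p6) held all 8 genes, in 9 windows because Dll1 has 2 listed starts. The table's 250 bases before its start are printed for Notch3, the receptor with the largest positive difference between the groups, and for Notch4 and Dll4, a receptor and a ligand that were lower in HAS2_Tg, with the N-box CACNAG, a sequence that HES proteins can bind, in capitals. The windows lie at chr17:32166891-32167140 on the minus strand (Notch3), chr17:34564045-34564294 on the plus strand (Notch4) and chr2:119325534-119325783 on the plus strand (Dll4). The table's starts for Notch3 and Notch4 lie a few bases inside the gene spans given with the neighbouring genes, and the bases after the Notch3 start were not found near the beginning of a GENCODE transcript, so distances hold for the RefSeq starts alone.
Notch3: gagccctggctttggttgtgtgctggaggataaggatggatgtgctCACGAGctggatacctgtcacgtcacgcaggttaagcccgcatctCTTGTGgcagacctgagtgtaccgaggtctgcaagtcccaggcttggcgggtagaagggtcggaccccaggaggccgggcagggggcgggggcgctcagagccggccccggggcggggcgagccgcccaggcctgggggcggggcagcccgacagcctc
Notch4: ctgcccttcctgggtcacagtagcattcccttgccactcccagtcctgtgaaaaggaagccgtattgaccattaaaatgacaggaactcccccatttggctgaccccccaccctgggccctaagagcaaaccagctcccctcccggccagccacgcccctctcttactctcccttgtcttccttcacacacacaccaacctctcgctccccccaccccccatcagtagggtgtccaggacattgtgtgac
Dll4: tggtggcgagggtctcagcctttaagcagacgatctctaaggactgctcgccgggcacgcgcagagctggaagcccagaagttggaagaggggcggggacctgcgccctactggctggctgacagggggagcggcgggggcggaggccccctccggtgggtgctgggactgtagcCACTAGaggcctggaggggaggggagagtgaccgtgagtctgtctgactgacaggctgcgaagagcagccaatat
Searched on both strands, the N-box occurred at 2 places in the Notch3 window, at 204 and 159 bases before the start, at 1 place in the Dll4 window and at none in the Notch4 window. It also occurred once each in the windows of Notch1 and Notch2, so that 4 of the 9 windows held it, and these matches did not overlap another searched motif. The N-box was present in 36.7% of all 32851 promoter windows of that length. The RBPJ core TGGGAA, found in 21.6% of all windows, the E-box CACGTG, found in 6.02%, and the CArG box bound by SRF, found in 1.47%, had no match in any of the 9 windows. A match describes these letters and no match says only that they are not in these windows. The Notch3 window was 68.8% G or C, the Dll4 window 65.6% and the Notch4 window 58.4%, against a median of 52.4% over all windows.

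The libraries held 11961726 to 12423220 expected counts, and Has2 had 835 to 889 counts in the HAS2_Tg libraries and 1 count in each Has2_KO library. Reads from the human transgene enter this count only where they map to the mouse gene. All 15 stellate cell markers had counts in both groups, at levels that varied widely, with Reln at 1575 CPM (library-scaled counts, here after TMM adjustment) in HAS2_Tg and 1591 CPM in Has2_KO, Lrat at 102 CPM in HAS2_Tg cells and 25.9 CPM in Has2_KO cells, and Gfap at 3.501 CPM in HAS2_Tg cells and 2.36 CPM in Has2_KO cells. Of 13014 genes tested with edgeR, 40.7% differed at an adjusted p under 0.05, 20.2% higher and 20.5% lower in HAS2_Tg. Scaling by total counts in place of TMM moved the median log2 fold change of all genes by -0.17 and the calls to 1477 higher and 4827 lower, against 2625 and 2673 with TMM. HAS2_Tg replicate 4 stood apart in that 1 unnamed identifier took 1.59% of its counts and at most 0.156% elsewhere.

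Per unit of transcript length Notch1 was the most abundant of the 8 genes in both groups, followed by Jag1 and Notch2, and the places of Notch3 and Notch4 were exchanged between the groups. FPKM, fragments scaled by transcript length and library depth, is used for levels compared between genes. In HAS2_Tg the order of mean FPKM was Notch1, Jag1, Notch2, Notch3, Notch4, Dll4, Jag2 and Dll1. In Has2_KO it was Notch1, Jag1, Notch2, Notch4, Notch3, Dll4, Dll1 and Jag2. Within HAS2_Tg the ranges of neighbours in this order were separate except those of Jag2 and Dll1, and within Has2_KO all neighbours were separate. Each gene was counted on 1 RefSeq transcript model, so the files do not resolve isoforms.

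**Figure D1:**
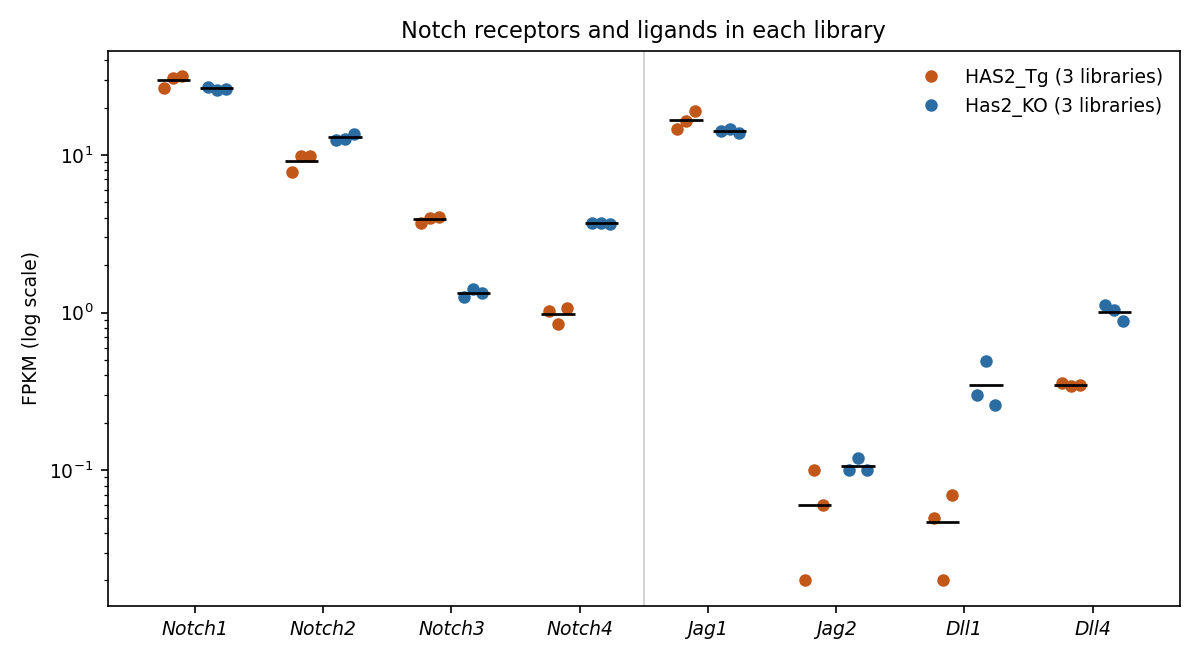
FPKM on a log axis of the 8 genes in each library, HAS2_Tg left and Has2_KO right of each pair, with the group mean as a bar (3 libraries each). Notch3 averaged 3.91 in HAS2_Tg and 1.33 in Has2_KO, Notch4 averaged 0.980 in HAS2_Tg and 3.69 in Has2_KO, and the FPKM of Notch1, Jag1 and Jag2 overlapped between the groups.

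Among the receptors, Notch3 was 3.31-fold higher and Notch4 3.33-fold lower in HAS2_Tg, while Notch1 and Notch2 differed by less than 1.5-fold. Notch3, whose extracellular domain is mutated in the small-vessel disease CADASIL, had 357, 384 and 397 counts in the HAS2_Tg libraries, against 125, 141 and 132 in the Has2_KO libraries. Every HAS2_Tg library was far above every Has2_KO library, and the groups did not overlap. Its level was 33.4 ± 1.34 CPM in HAS2_Tg cells and 10.1 ± 0.596 CPM in Has2_KO cells (SD, n = 3 each). The log2 fold change was 1.73 with an SE of 0.10 (edgeR quasi-likelihood test, Benjamini-Hochberg adjusted p = 2.44e-09), a value that 98.99% of tested genes lay below.

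Notch4, a receptor best known in endothelium, had 82, 68 and 87 counts in the HAS2_Tg libraries, against 308, 307 and 300 in the Has2_KO libraries. All HAS2_Tg libraries were below all Has2_KO libraries, and the 3 Has2_KO values were nearly alike. Its level was 6.96 ± 0.903 CPM in HAS2_Tg cells and 23.2 ± 0.271 CPM in Has2_KO cells (SD, n = 3 each), a log2 fold change of -1.74 with an SE of 0.12 (edgeR adjusted p = 1.57e-08). The sizes of the Notch3 and Notch4 differences were both past a fold of 1.5 when tested against it (edgeR adjusted p = 6.11e-08 and 3.57e-07).

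Notch1, the broadly expressed receptor that leads the group in level, had 3086, 3564 and 3731 counts in the HAS2_Tg libraries, against 3233, 3097 and 3138 in the Has2_KO libraries. The raw counts overlapped, with HAS2_Tg replicate 4 the lowest of the 6 libraries, and after TMM scaling the groups separated. Notch1 then averaged 304.5 ± 25.2 CPM in HAS2_Tg cells and 240.03 ± 5.47 CPM in Has2_KO cells (SD, n = 3 each; log2 fold change 0.34, SE 0.08, edgeR adjusted p = 0.00261). This call depended on the scaling, since with total counts the log2 fold change was 0.17 (edgeR adjusted p = 0.0918). In FPKM Notch1 averaged 29.8 ± 2.74 in HAS2_Tg and 26.5 ± 0.639 in Has2_KO (SD, n = 3 each), and its log2(FPKM + 1) difference did not pass with limma (0.16, adjusted p = 0.123).

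Notch2, which acts with Jag1 in bile duct formation, had 1002, 1255 and 1280 counts in the HAS2_Tg libraries, against 1645, 1676 and 1800 in the Has2_KO libraries. The groups did not overlap, and HAS2_Tg replicate 4 was again the lowest library. Its level was 103.7 ± 12.1 CPM in HAS2_Tg cells and 129.8 ± 6.59 CPM in Has2_KO cells (SD, n = 3 each; log2 fold change -0.32, SE 0.09, edgeR adjusted p = 0.00948). With total counts the log2 fold change was -0.50, and the Notch2 call ended without Has2_KO replicate 9 (log2 fold change -0.28, edgeR adjusted p = 0.0634).

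Summed over the 4 receptors the level was 43.9 ± 4.07 FPKM in HAS2_Tg and 44.5 ± 0.666 FPKM in Has2_KO (SD, n = 3 each), means that lay closer than the HAS2_Tg libraries did to each other. FPKM leaves out the TMM factors, which were 0.929 to 0.959 in HAS2_Tg and 1.06 in Has2_KO, so this closeness depends on the scaling. The make-up of the summed receptor FPKM differed more. Notch3 held 9.42%, 8.73% and 8.65% of summed receptor FPKM in the HAS2_Tg libraries, against 2.82%, 3.23% and 2.96% in the Has2_KO libraries. Notch2 held 19.95%, 21.6% and 21.1% in HAS2_Tg, against 27.98%, 29.003% and 30.4% in Has2_KO. For both shares the groups did not overlap, with an exact permutation p of 0.1 (two-sided), the smallest that 3 against 3 libraries allow, and 0.1125 after adjustment over 9 such measures. Notch1 held 67.9% in HAS2_Tg and 59.6% in Has2_KO on average, and Notch4 2.25% in HAS2_Tg and 8.29% in Has2_KO.

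Differences between receptors were set beside each other as ratios within a library, which do not depend on library scaling. The log2 ratio of Notch3 to Notch1 FPKM was -2.93 ± 0.07 in HAS2_Tg and -4.31 ± 0.12 in Has2_KO, a difference of 1.39 (SD, n = 3 each; exact permutation p = 0.1). The log2 ratio of Notch3 to Notch2 FPKM was -1.22 ± 0.12 in HAS2_Tg and -3.28 ± 0.10 in Has2_KO, a difference of 2.06 (SD, n = 3 each; exact permutation p = 0.1). Both ratios were higher in every HAS2_Tg library than in any Has2_KO library.

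**Figure D2:**
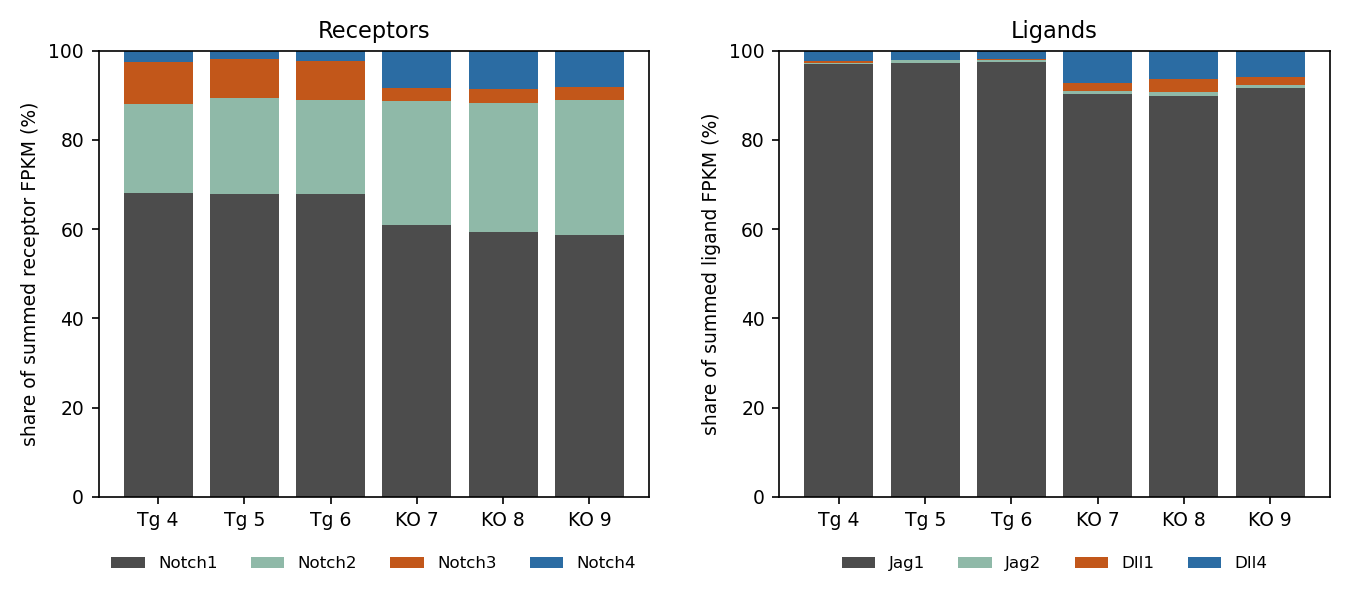
Share of summed receptor FPKM (left) and of summed ligand FPKM (right) held by each gene in each library, with HAS2_Tg replicates 4 to 6 before Has2_KO replicates 7 to 9. Notch3 took 8.65% to 9.42% of receptor FPKM in HAS2_Tg libraries and 2.82% to 3.23% in Has2_KO libraries, and Jag1 took most of the ligand FPKM in all 6.

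Among the ligands, Jag1 made up nearly all of the signal in both groups, and Dll4 and Dll1 were lower in HAS2_Tg. Jag1, the ligand mutated in Alagille syndrome in humans, had 975, 1086 and 1281 counts in the HAS2_Tg libraries, against 971, 1015 and 946 in the Has2_KO libraries. The raw counts overlapped and the TMM-scaled levels did not, at 98.03 ± 12.6 CPM in HAS2_Tg cells and 74.3 ± 2.43 CPM in Has2_KO cells (SD, n = 3 each; log2 fold change 0.40, SE 0.09, edgeR adjusted p = 0.00272). As for Notch1, the call was lost with total counts (0.23, edgeR adjusted p = 0.0555) and with limma on log2(FPKM + 1) (0.20, adjusted p = 0.0996).

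Dll4, a Delta ligand known from sprouting endothelium, had 15, 14 and 15 counts in the HAS2_Tg libraries, against 48, 45 and 38 in the Has2_KO libraries. The groups did not overlap. Its level was 1.29 ± 0.0643 CPM in HAS2_Tg cells and 3.32 ± 0.383 CPM in Has2_KO cells (SD, n = 3 each; log2 fold change -1.36, SE 0.23, edgeR adjusted p = 0.000269). Dll1, the other Delta ligand, had 2, 1 and 3 counts in the HAS2_Tg libraries, against 13, 21 and 11 in the Has2_KO libraries. It passed the low-count filter only through Has2_KO, so its place among the tested genes already required a difference. After TMM adjustment its summed count was 6.48 times as high in Has2_KO, with a 95% exact interval of 2.75 to 18.6 that covers counting error only (edgeR adjusted p = 0.000904). Jag2, the other Jagged ligand, had 1, 5 and 3 counts in the HAS2_Tg libraries, against 5, 6 and 5 in the Has2_KO libraries. It was below the filter and was not tested, and its scaled ratio of 1.54 in favour of Has2_KO had a 95% exact interval of 0.639 to 3.94, so no difference was detectable at this depth.

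Jag1 held 97.1%, 97.3% and 97.5% of summed ligand FPKM in the HAS2_Tg libraries, against 90.3%, 89.9% and 91.7% in the Has2_KO libraries. The groups did not overlap (exact permutation p = 0.1, two-sided). Dll4 held 2.07% in HAS2_Tg and 6.45% in Has2_KO on average, and Dll1 0.271% in HAS2_Tg and 2.21% in Has2_KO. The log2 ratio of summed ligand to summed receptor FPKM was -1.36 ± 0.09 in HAS2_Tg and -1.50 ± 0.08 in Has2_KO (SD, n = 3 each), and its difference of 0.14 did not separate the groups (exact permutation p = 0.2).

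The edgeR test called Notch1, Notch3 and Jag1 higher and Notch2, Notch4 and Dll4 lower in HAS2_Tg, in a comparison in which it called 40.7% of all tested genes. Dll1 was also called lower, but it was tested only because of its Has2_KO counts. The CPM of these genes did not overlap between the groups, which held for 52.2% of all tested genes. In FPKM the groups overlapped for Notch1 and Jag1 and were apart for Notch2, Notch3, Notch4, Dll1 and Dll4, and 57.4% of all tested genes had groups that did not overlap.

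**Figure D3:**
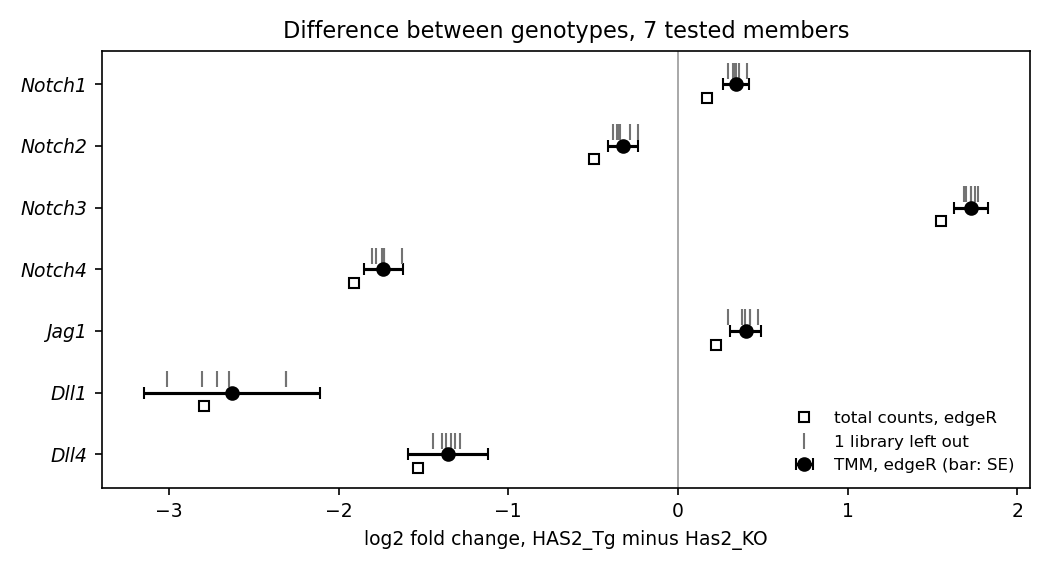
Log2 fold change, HAS2_Tg minus Has2_KO, of the 7 tested genes (edgeR, TMM scaling, bars are SE), with the values under total-count scaling as squares and with each library left out as ticks. Notch3 lay at 1.73 and Notch4 at -1.74, while Notch1 (0.34) and Jag1 (0.40) lost their calls with total counts (0.17 and 0.23).

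The spread between libraries differed from gene to gene, although a spread over 3 libraries is itself imprecise. The coefficient of variation of CPM was larger in HAS2_Tg for Notch1 (8.28% in HAS2_Tg and 2.28% in Has2_KO), Notch2 (11.6% and 5.08%), Notch4 (12.97% and 1.17%) and Jag1 (12.8% and 3.28%). It was also larger for the low-count genes Dll1 (49.7% in HAS2_Tg and 35.0% in Has2_KO) and Jag2 (65.9% and 10.6%). It was smaller in HAS2_Tg for Notch3 (4.00% in HAS2_Tg and 5.90% in Has2_KO) and Dll4 (4.98% and 11.5%). Several of these values are below what counting error alone gives on average. They are those of Notch3 and Dll4 in both groups, Notch4 and Jag2 in Has2_KO, and Dll1 in HAS2_Tg. These values, and contrasts between groups that rest on them, do not describe the genes. In FPKM, HAS2_Tg replicate 4 was the lowest of its group for Notch1, Notch2, Notch3 and Jag1, at 26.7, 7.82, 3.69 and 14.6.

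Notch pathway genes outside the family went both ways, and as a list they centred near all tested genes. The targets Heyl, Hey1 and Hey2 and the enzyme Rfng were higher in HAS2_Tg. Rbpj, the protease Adam17 and the target Nrarp were lower. Of 62 genes on a list of pathway roles, 54 were tested, and 12 were called higher and 8 lower in HAS2_Tg, where 20.2% and 20.5% of all tested genes were. The list's median log2 fold change was 0.00, beside -0.01 over all tested genes. The 8 lower genes include Lfng, Mfng and Nrarp, which were tested only because of their Has2_KO counts. The counts depended on scaling, with 8 higher and 23 lower under total counts.

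Among 5 tested target genes, Heyl was at 18.2 ± 2.13 CPM in HAS2_Tg cells and 5.53 ± 0.104 CPM in Has2_KO cells (SD, n = 3 each; log2 fold change 1.72). Hey1 had a log2 fold change of 1.76 and Hey2 of 1.11. These basic helix-loop-helix repressors are known targets of the receptors, and their differences kept their calls under total counts. Nrarp, an ankyrin-repeat protein that limits Notch output, was at 0.146 ± 0.1003 CPM in HAS2_Tg cells and 5.05 ± 1.04 CPM in Has2_KO cells (SD, n = 3 each; log2 fold change -5.01, edgeR adjusted p = 8.26e-08). With 5 counts over HAS2_Tg and 199 over Has2_KO, Nrarp passed the low-count filter only through Has2_KO, as did Lfng and Mfng, described next. Hes1, added after its value was seen, had 0.22, and lost its call under total counts (0.05, edgeR adjusted p = 0.659) and in 11 other alternatives.

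The fringe glycosyltransferases, which change the ligand preference of the receptors, split. Lfng had no count in any HAS2_Tg library and 5.17 ± 0.537 CPM in Has2_KO (SD, n = 3), at least 58.7-fold lower in HAS2_Tg when its summed count there is set to the floor of 3. Mfng had likewise no count in HAS2_Tg and was at least 16.98-fold lower. Rfng was at 62.9 ± 9.09 CPM in HAS2_Tg cells and 42.3 ± 2.15 CPM in Has2_KO cells (SD, n = 3 each; log2 fold change 0.57, edgeR adjusted p = 0.000314). Pofut1 (0.18), which adds the fucose that fringe extends, and Poglut1 (-0.05), which adds glucose to the same repeats, did not pass.

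Of 10 receptor-cleaving genes, Adam17, a sheddase, had -0.64 (edgeR adjusted p = 5.31e-06), and Psen2 of gamma-secretase had -0.27 and Ncstn, its nicastrin subunit, 0.22. The Psen2 call ended in 5 alternatives that left out a library, and that of Ncstn in 9 alternatives, total counts among them (0.04). Adam10, the main protease of ligand-bound receptors, had -0.13 and did not pass. Among genes of ligand endocytosis, Neurl1b, an E3 ubiquitin ligase, was at 8.94 ± 1.06 CPM in HAS2_Tg cells and 3.37 ± 0.66 CPM in Has2_KO cells (SD, n = 3 each; log2 fold change 1.40), and the epsin Epn1 had 0.43. Mib1, the ligase best known for acting on Notch ligands, had -0.78 with an SE of 0.29 and did not pass (edgeR adjusted p = 0.0811).

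Rbpj, the DNA-binding partner of the receptors, was at 105.02 ± 15.2 CPM in HAS2_Tg cells and 168.7 ± 10.8 CPM in Has2_KO cells (SD, n = 3 each; log2 fold change -0.68, edgeR adjusted p = 5.72e-05). Of the acetyltransferases that can join it, Kat2b had 0.50 and Kat2a -0.33, and Maml1, Maml2 and Maml3 did not pass. Among genes of receptor trafficking, Numbl had 0.42, Dtx3 0.40 and Dtx4 -0.33. The Dtx3 call was lost under total counts (0.22, edgeR adjusted p = 0.0781), and the Dtx4 call without Has2_KO replicate 8 (-0.29, edgeR adjusted p = 0.0600). Of 10 corepressor genes edgeR called 0, with 4 at an unadjusted p under 0.05, and DESeq2 and limma on log2(FPKM + 1) also called 0. Other ligands were too low to test, with Dll3 at 2 counts over HAS2_Tg and 7 over Has2_KO, Dlk1 at 1 and 0, Dlk2 at 5 and 2, and Dner at 0 and 30.

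**Figure D4:**
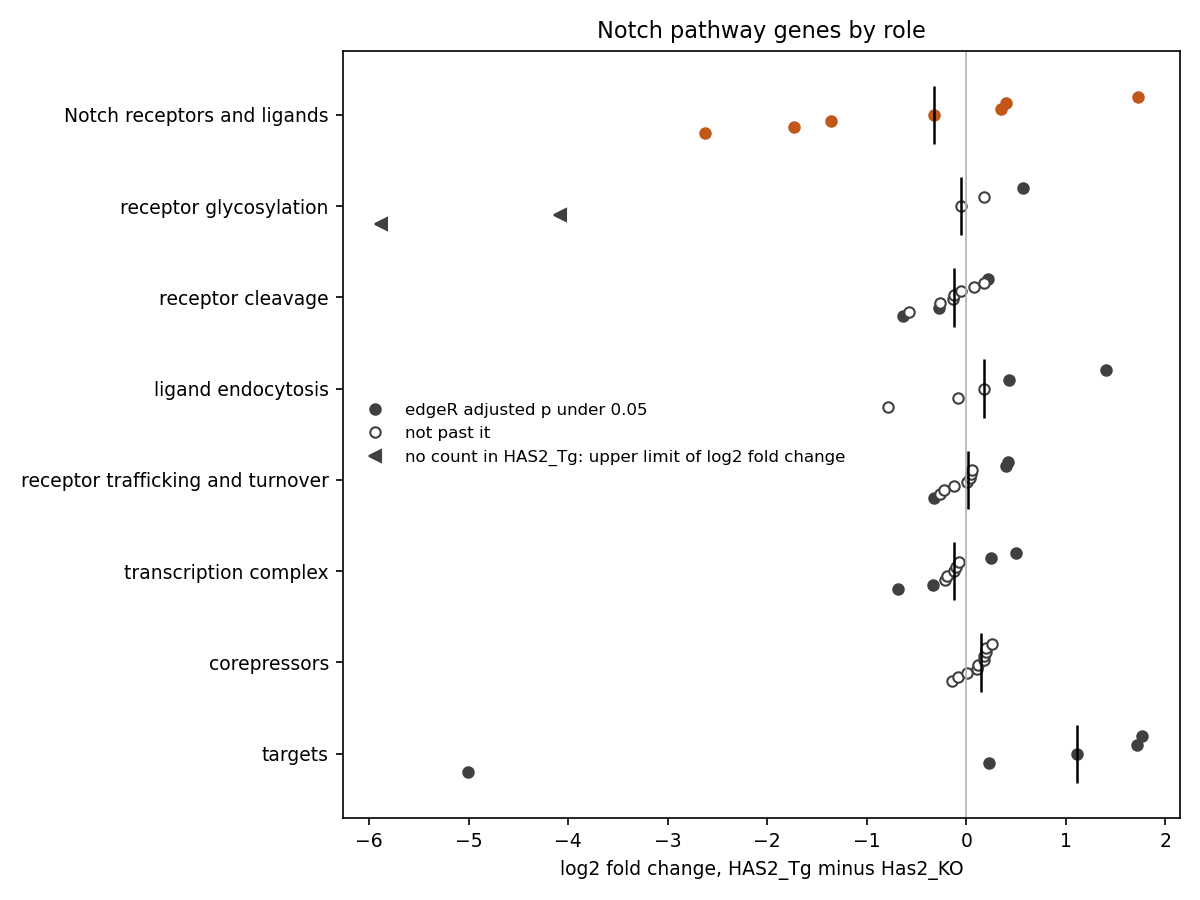
Log2 fold change, HAS2_Tg minus Has2_KO, of the 7 tested receptors and ligands and of tested pathway genes by role (edgeR; filled, adjusted p under 0.05; vertical lines, medians). Triangles are upper limits for Lfng and Mfng, which had no count in HAS2_Tg. The targets hold 4 higher genes and Nrarp at -5.01, and no corepressor passed.

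All tested endothelial, hepatocyte and cholangiocyte markers and nearly all tested macrophage markers were lower in the same HAS2_Tg libraries. Markers of vascular smooth muscle and portal fibroblasts went both ways. The part of other cells in the differences was not tested. In bulk libraries, fewer cells of a type and less RNA per cell cannot be told apart. Of all tested genes, 20.2% were called higher and 20.5% lower in HAS2_Tg. All 23 endothelial markers were lower in HAS2_Tg (median log2 fold change -6.83, or -6.09 with genes absent from HAS2_Tg at their bound), and together they took 0.00386% to 0.00445% of counts in HAS2_Tg libraries and 0.123% to 0.135% in Has2_KO libraries. Emcn and Gpihbp1 had no count in HAS2_Tg and were tested only because of their Has2_KO counts. The same held for others with few counts summed over HAS2_Tg, such as Sox17 and Sox18 (1 each), Erg and Robo4 (2 each), Oit3 (6) and Kdr (8). For such genes being tested already required a difference, so the count of lower markers is not free of the filter. Of 17 tested macrophage markers 16 were lower (median -6.03, or -5.98 with bounds), and Cx3cr1 (0.11) was not called. The summed level of the 18 listed was 0.00156% to 0.00179% in HAS2_Tg and 0.0691% to 0.0747% in Has2_KO. Clec4f and Timd4 had no count in HAS2_Tg. Clec4f, and others with few counts such as Itgam and Vsig4 (3 each over HAS2_Tg), were tested only because of their Has2_KO counts.

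Hepatocyte and cholangiocyte markers were low in both groups, at no more than 0.000365% of counts in HAS2_Tg libraries and 0.00457% in Has2_KO libraries for the 10 listed hepatocyte genes, and 0.000270% and 0.00137% for the 9 cholangiocyte genes. All 5 tested hepatocyte and all 3 tested cholangiocyte markers were lower in HAS2_Tg. Of these, Alb, with 30 counts over HAS2_Tg, was tested only because of its Has2_KO counts. So were Apob, Ttr, Serpina1a, Krt8 and Krt18, with at most 6 counts over HAS2_Tg. Krt18, a cholangiocyte marker, had no count in HAS2_Tg and 120 over Has2_KO. Epcam, Cftr, Cldn4 and the hepatocyte gene Hnf4a had no count in HAS2_Tg and only 1 or 2 over Has2_KO, too few to show a difference. For the next 2 lists the shares over all tested genes were 20.2% higher and 20.5% lower. Of 15 stellate cell markers 10 were higher and 1, Pdgfra, was lower in HAS2_Tg (0.719% to 0.721% of counts in HAS2_Tg, 0.500% to 0.526% in Has2_KO). Of 10 tested vascular smooth muscle and portal fibroblast markers 5 were higher and 3 lower, with a median log2 fold change of -0.10, and Thy1 (-2.17) and Cd34 (-2.13) were among the lower. The 13 listed took 0.164% to 0.189% of counts in HAS2_Tg and 0.0438% to 0.0465% in Has2_KO, a sum to which Myh11 added most in HAS2_Tg, at 1270.4 CPM in HAS2_Tg cells and 108 CPM in Has2_KO cells.

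The log2 fold change of Notch4 (-1.74) was smaller in size than that of every endothelial marker on the list except Esam (-1.40). That of Dll4 (-1.36, SE 0.23) was smaller than those of all 23, but its gap to Esam was within this SE. Cdh5, the endothelial cadherin, was at 1.76 ± 0.469 CPM in HAS2_Tg cells and 402 ± 17.5 CPM in Has2_KO cells (SD, n = 3 each), and lay beside Notch4 at 6.96 CPM in HAS2_Tg cells and 23.2 CPM in Has2_KO cells. The log2 ratio of Notch4 to Cdh5 FPKM was 1.72, 0.65 and 1.46 in the HAS2_Tg libraries, against -4.90, -4.81 and -4.82 in the Has2_KO libraries. Notch4 was thus above Cdh5 per length in every HAS2_Tg library and below it in every Has2_KO library (difference 6.12, exact permutation p = 0.1). The log2 ratio of Dll4 to Cdh5 FPKM was -0.20 ± 0.44 in HAS2_Tg and -6.71 ± 0.13 in Has2_KO (SD, n = 3 each; difference 6.51, exact permutation p = 0.1). Beside Notch3, the mural gene Myh11, smooth muscle myosin heavy chain, had a log2 fold change of 3.55. It was the largest on a marker list that pools cell types and went both ways, with 5 higher and 3 lower (median -0.10). Actg2 (2.91) and Lmod1 (2.41) were the next largest of the higher genes. The log2 ratio of Notch3 to Myh11 FPKM was -5.52 ± 0.17 in HAS2_Tg and -3.69 ± 0.14 in Has2_KO (SD, n = 3 each; difference -1.82, exact permutation p = 0.1).

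**Figure D5:**
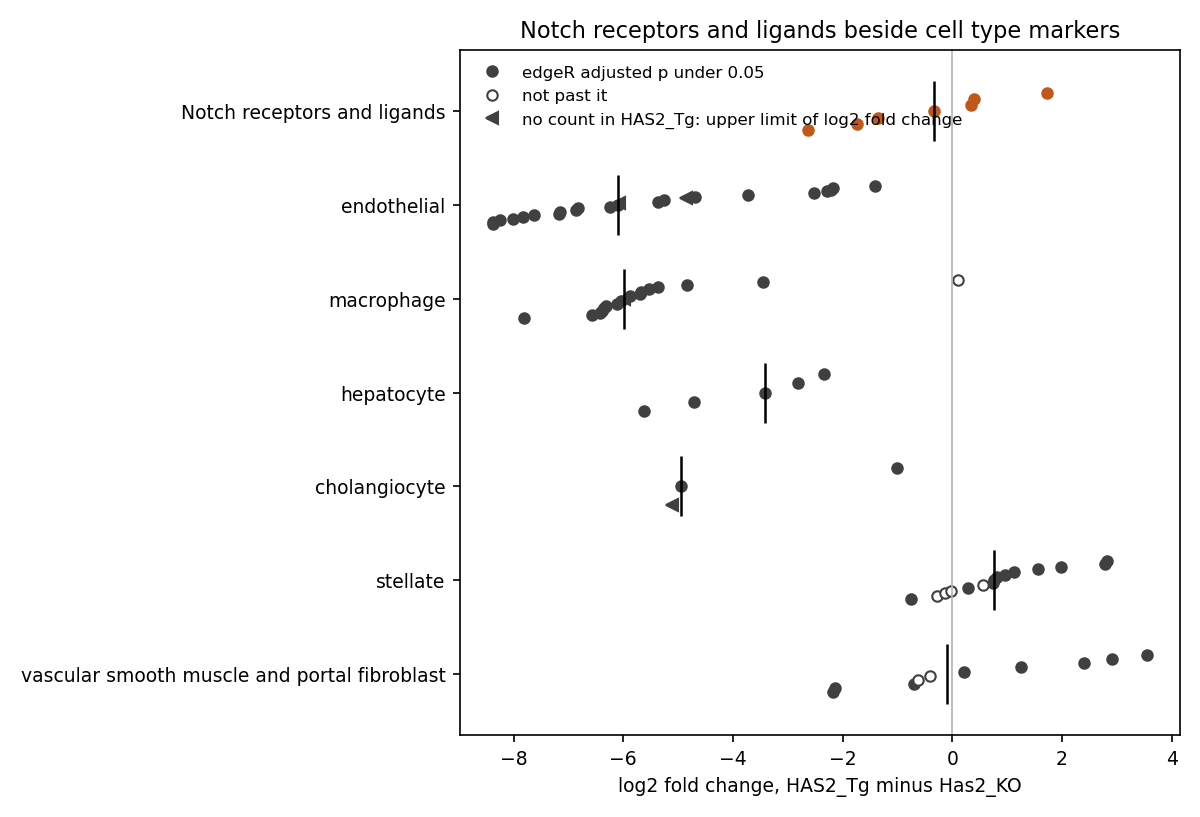
Log2 fold change, HAS2_Tg minus Has2_KO, of the 7 tested receptors and ligands and of tested marker genes by cell type (edgeR; filled, adjusted p under 0.05; triangles, upper limits for genes with no count in HAS2_Tg; vertical lines, medians with those limits). Endothelial markers centre on -6.09 while Notch4 lies at -1.74 and Dll4 at -1.36.

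The genes whose profiles over the 6 libraries lay closest to each receptor or ligand were found by the root mean square difference of mean-centred log2 CPM, a measure that follows mostly the difference between the groups. Closest to Notch3 were Adgrg6 (0.07), Tgfb2 (0.07) and Itga6 (0.08), with log2 fold changes of 1.80, 1.81 and 1.86. Closest to Notch4 were Vcam1 (0.08), Pak1 (0.08) and Parvb (0.11), and closest to Dll4 were Cd274 (0.04), Epha4 (0.07) and Btbd11 (0.07). The closest to Dll1 was Lama4, at 0.16. Genes as low as Dll1 were left out of this search and its counts were few, so that distance says little about its profile. For Notch1 they were Inpp5b, Palld and Ikbip (each 0.03), for Notch2 Lrba, Ubr2 and Usp24 (each 0.02), and for Jag1 Map2, Sp100 and Per1 (each 0.04).

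In the mouse genome (GRCm38) 3 of the 8 genes lie on chromosome 2, Notch1 at 26457902 to 26503822, Dll4 at 119325784 to 119335666 and Jag1 at 137081451 to 137116520. Another 3 lie on chromosome 17, Dll1 at 15367354 to 15376932, Notch3 at 32120820 to 32166896 and Notch4 at 34564286 to 34588543. Notch2 lies on chromosome 3 at 98013538 to 98150367 and Jag2 on chromosome 12 at 112907803 to 112929812. Gpsm3, which starts 1262 bases after Notch4, had a log2 fold change of 0.24 (SE 0.09, edgeR adjusted p = 0.0477), opposite in sign to that of Notch4. The nearest tested gene on the other side of Notch4, the class II gene H2-Eb1, lies 247611 bases away. H2-Eb1 had -1.65 (SE 0.42, edgeR adjusted p = 0.00551). With a HAS2_Tg mean of only 0.384 CPM, H2-Eb1 was tested only because of its Has2_KO counts, which already required a difference. Both tested neighbours of Notch1 were called lower in HAS2_Tg, opposite in sign to Notch1, with Sec16a at -0.36 (edgeR adjusted p = 0.00728) and the endothelial gene Egfl7, 77260 bases away, at -2.28 (edgeR adjusted p = 1.36e-10). Slx4ip, which lies 99 bases from Jag1, had -0.02, and Btbd3 on its other side -0.03. The neighbours of Notch2, Sec22b and Phgdh, each had 0.01, and none of these 4 passed. The nearest tested genes on either side of Dll1 (Ermard and Fam120b) and Dll4 (Vps18 and Chac1) had log2 fold changes between -0.11 and 0.02, and none of those passed either.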

How the data were processed

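RNA from 6 libraries of cultured primary mouse hepatic stellate cells (3 HAS2_Tg, 3 Has2_KO, grouped by their labels) was sequenced on a BGISEQ-500. RSEM and the mm10 build are named in the submitters' processing notes, with no RSEM version in the sources used here. The deposited expected counts are the authors' estimates of reads per gene, per the file headers. The deposited FPKM values were scaled by the authors for length and depth, per the file headers, and given to 2 decimals. The deposited transcript lengths were used to compute counts per kilobase. A gene missing from a file was set to 0. Of 17909 identifiers, 17857 were named through RefSeq tables of GRCm38.

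After rounding, genes passing edgeR's filterByExpr were normalised by TMM and fitted with its robust quasi-likelihood model. Two-sided p-values were adjusted over all genes by Benjamini-Hochberg, and 0.05 was the threshold. Differences are HAS2_Tg minus Has2_KO. The SE is the log2 fold change over the root of F. Shares and ratios of FPKM were tested by exact permutation. Intervals and floors cover counting error only, as the reads carry no molecular identifiers. The genes, lists and tests were chosen with earlier results of these data known. Named genes were all 8 receptors and ligands, up to 3 called genes per pathway role by adjusted p, genes absent from a group, and the 3 closest profiles per called gene among genes of at least 5 mean CPM; other names were added after their values were seen.

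Each library was left out in turn, and other alternatives were scaling by total counts, upper quartiles or DESeq2 size factors, 2 other filters, DESeq2's own test, log2 values of FPKM + 1 or FPKM + 0.1 in limma, other thresholds and counts per kilobase. On simulated counts for HAS2_Tg against Has2_KO (12953 genes), 20% of genes changed 1.25-fold, 82% at 1.5-fold and 100% at 2-fold were recovered. The simulation changed 50 genes at each fold, far fewer than were called here, none of low count, with the same dispersion for all genes. Its rates therefore do not carry over to this comparison or to genes as low as Dll1 and Jag2. Python 3.11.15 (pandas 2.3.3, scipy 1.17.1) and R 4.3.3 were used, with DESeq2 1.42.0, limma 3.58.1 and edgeR 4.0.16.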

Additional observations from a re-analysis of the deposited data

How the results depend on the processing

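Notch3, Notch4, Dll1 and Dll4 kept their direction and call in every alternative that could give a value, with log2 fold changes of 1.07 to 1.77 (Notch3), -1.91 to -1.24 (Notch4), -3.01 to -0.36 (Dll1) and -1.53 to -0.57 (Dll4). The stricter filter and the filtered FPKM fits left out Dll1 and Dll4. The smallest sizes came from log2(FPKM + 1), whose pseudocount understates low genes. Notch1 kept its sign but not its call with total counts (0.17), with limma on log2(FPKM + 1) with a filter (0.16) or without (0.16) and on log2(FPKM + 0.1) (0.16). Jag1 did likewise, at 0.23, 0.20, 0.20 and 0.22. Total counts and FPKM leave out the TMM factors, which were 0.929 to 0.959 in HAS2_Tg and 1.06 in Has2_KO. With each library left out, Notch2 ranged from -0.38 to -0.23 and lost its call without Has2_KO replicate 9. Jag2 had too few reads for the filter and did not pass in either fit that kept it. Of all genes, 1597 passed a test against a fold of 1.5, in place of 5298. The pathway list's count of lower genes was 8, and 23 with total counts, 19 in each of the 3 limma fits, 5 with the stricter filter and 6 to 13 with each library left out, with 13 without HAS2_Tg replicate 6. No share or ratio changed its sign in any alternative. No paired analysis was possible because the groups share no replicate numbers. Depth limits Jag2 and Dll1, which had at most 6 and 21 counts in any library.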
